A study of Mus musculus with 6 samples.

Results

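Interferon-stimulated genes were followed in haematopoietic stem cells (HSC), the cells that sustain blood formation, of mice with a mutant DNA ligase IV. The genes were a list of 38 names from the core interferon response, and a gene counted as measured when at least 1 probe set of the array is annotated to it and to no other gene. Of the 38, 36 were measured, through 54 probe sets, among 18193 measured genes in all. Ifi44 had no such probe set, and the probe set of Isg15 also names a second gene, so neither entered the comparison.

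There were 3 arrays of HSC from Lig4mut mice and 3 of HSC from their wild-type (WT, Lig4+/+) littermates, all from intercrosses of heterozygotes and aged 6 to 8 weeks. The sorted bone marrow cells were CD150+ CD48- and KSL, that is, lineage-negative with Sca-1 and Kit on their surface. Neither genotype was treated, and the labels say nothing of the nature of the mutation, of whether it is present in every cell of the body, or of whether a replicate was 1 mouse or a pool. P-values therefore measure the spread between these arrays, which may in part be technical. Lig4, the mutated gene, had log2 levels of 4.97, 3.16 and 3.10 in the Lig4mut arrays, against 7.53, 6.66 and 7.63 in the WT arrays, without overlap (difference -3.53 ± 0.61, SE; limma, adjusted p = 0.13). Of the stem cell markers laid down, 11 of 13 were measured, none at the lowest value of the table. Their mean level was 10.20, 9.41 and 9.95 in Lig4mut replicates 1, 2 and 3 and 10.47 to 10.67 in WT arrays. For 6 of the 11 the Lig4mut arrays lay all below the WT arrays, against 5.65% of all genes. Kit, a marker of the sort, was among them (limma, difference -0.95 ± 0.26, adjusted p = 0.163).

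Interferons are signalling proteins that cells release on sensing viral or displaced nucleic acid. Type I interferon binds a receptor whose kinases activate a complex that includes STAT2 and IRF9, and this complex binds the interferon-stimulated response element in the promoters of many antiviral genes, whereas interferon gamma acts through the gamma-activated site. Stem cells keep part of this programme on without infection, and in mice strong or repeated interferon exposure drives quiescent HSC into the cell cycle. Broken DNA that reaches the cytosol is a known trigger of interferon production, and DNA ligase IV carries out the sealing step when broken ends are rejoined without a template.

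Promoter sequences were read from RefSeq and searched for the letters of the response element and of the gamma-activated site. The table (GRCm38.p6) held windows of 300 bases, 250 before to 50 after the gene start, for 26 of the 38 genes. The core of the response element, GAAANNGAAA on either strand, was present in 15 of the 26, or 57.7%, against 3.99% of the 27025 genes with a window. The gamma-activated site, TTCNNNGAA, which reads the same on both strands, was present in 7 of the 26, or 26.9%, against 9.55% of all genes. These 7 were Irf1, Ifit2, Oas1a, Bst2, Ifitm3, Igtp and Samhd1, and in Bst2 and Ifitm3 the site overlapped a core. A match is a stretch of letters, and binding was not measured.

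The 250 bases before the gene start are given for the members whose genotypes stood farthest apart and that had a window. Capitals mark the core, which is printed as its reverse complement where it lies on the other strand. Ifit3 has cores 156 and 122 bases before its start, Oas3 has 1 at 75 bases, and the letters of the core do not occur in the window of Irf7.
Ifit3 (chr19:34583279-34583528, + strand): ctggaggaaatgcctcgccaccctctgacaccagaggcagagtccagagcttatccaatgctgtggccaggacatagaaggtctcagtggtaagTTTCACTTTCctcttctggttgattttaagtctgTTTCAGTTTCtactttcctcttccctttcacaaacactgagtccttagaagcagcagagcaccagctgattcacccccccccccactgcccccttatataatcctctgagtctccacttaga
Oas3 (chr5:120777660-120777909, - strand): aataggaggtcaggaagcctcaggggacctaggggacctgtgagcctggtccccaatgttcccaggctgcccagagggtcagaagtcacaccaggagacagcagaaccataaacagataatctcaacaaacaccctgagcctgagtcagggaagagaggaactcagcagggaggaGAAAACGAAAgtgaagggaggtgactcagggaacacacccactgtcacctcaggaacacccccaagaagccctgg
Irf7 (chr7:141266425-141266674, - strand): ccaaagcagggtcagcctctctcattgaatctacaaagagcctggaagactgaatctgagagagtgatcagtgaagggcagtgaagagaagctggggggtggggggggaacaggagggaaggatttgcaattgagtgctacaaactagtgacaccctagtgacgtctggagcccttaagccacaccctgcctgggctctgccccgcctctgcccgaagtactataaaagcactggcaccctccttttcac

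Shorter stretches, 20 bases to each side of the core but ending at the gene start, show the element in further genes. Ifih1, Ddx58 and Ifitm3, whose cores lie after the start, are not shown. Igtp, Irgm1, Bst2 and Gbp2 had positive differences, Rsad2, Ifit1 and Oas1a had values close to the median of all genes, Gbp3 was close to 0 and Stat2 was negative. The 95% interval of each of these genes includes 0, and whether the genes differed from each other was not tested. Isg15 carries 3 overlapping cores and is shown as the textbook member of the class.
Igtp (chr11:58199502-58199551, + strand): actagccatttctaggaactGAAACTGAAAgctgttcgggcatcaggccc
Irgm1 (chr11:48871421-48871470, - strand): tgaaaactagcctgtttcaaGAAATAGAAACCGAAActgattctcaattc
Bst2 (chr8:71537567-71537622, - strand): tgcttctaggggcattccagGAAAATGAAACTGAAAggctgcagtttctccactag
Gbp2 (chr3:142620584-142620633, + strand): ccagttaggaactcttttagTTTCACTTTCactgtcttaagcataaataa
Rsad2 (chr12:26456543-26456592, - strand): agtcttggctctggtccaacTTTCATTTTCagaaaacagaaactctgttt
Ifit1 (chr19:34640765-34640833, + strand): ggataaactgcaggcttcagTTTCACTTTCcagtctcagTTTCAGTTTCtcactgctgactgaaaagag
Oas1a (chr5:120907526-120907565, - strand): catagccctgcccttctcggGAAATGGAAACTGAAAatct
Gbp3 (chr3:142559979-142560034, + strand): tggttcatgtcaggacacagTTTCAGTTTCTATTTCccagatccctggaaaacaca
Stat2 (chr10:128270256-128270305, + strand): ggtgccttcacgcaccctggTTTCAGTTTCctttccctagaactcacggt
Isg15 (chr4:156200855-156200916, - strand): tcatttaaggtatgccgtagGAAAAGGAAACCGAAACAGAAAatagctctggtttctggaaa

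**Figure D1:**
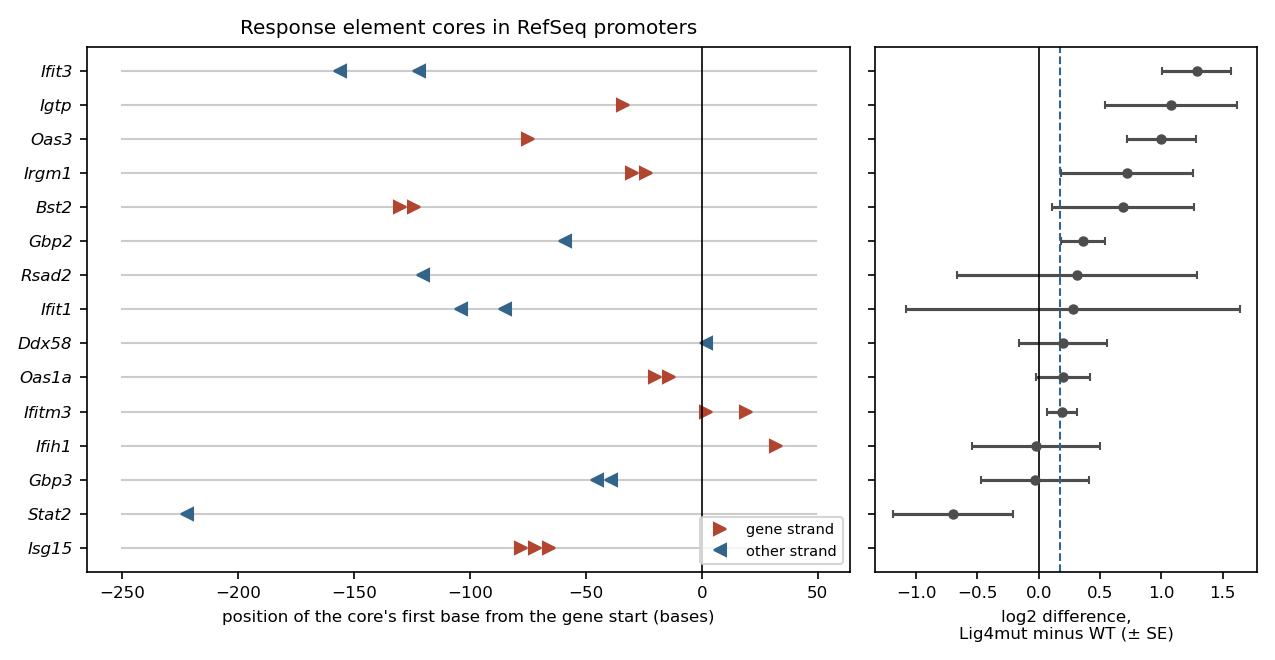
Left, position of each response element core (first base of the match on the gene's own strand, in bases from the gene start) in the RefSeq windows of 15 genes, with triangles pointing right for the gene's strand and left for the other strand. Right, log2 difference, Lig4mut minus WT, with its SE for the 14 of them that were measured, against 0 (solid) and the median of all genes, 0.177 (dashed). The genes with a core span differences of -0.70 to 1.29.

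Genes with the core had differences of both signs. The 14 measured genes with a core had 11 positive and 3 negative differences, with a median of 0.30, and the 10 measured genes with a window but no core had 5 of each, with a median of 0.05. These are descriptions of small groups, and the difference between them was not tested.

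Most interferon-stimulated genes had higher mean values in Lig4mut HSC, as did 62.9% of all genes, and a few stood above WT in every array. Levels are log2 values as deposited and then quantile normalized, which gives the 6 arrays 1 common distribution. A difference is Lig4mut minus WT on that scale, with its standard error (SE) from limma. Of the 36 members, 25 (69.4%) had positive and 11 negative differences, with a median of 0.319. The median of all genes was 0.177 in this normalization, so the members' median lay 0.142 above it. None of the 36 passed the threshold of 0.05 after Benjamini-Hochberg adjustment over all genes (limma, smallest adjusted p = 0.125), and of all 18193 genes 2, or 0.011%, did.

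At an unadjusted p under 0.05, 5 members were higher in Lig4mut HSC and 0 lower. These were Irf7, Ifit3, Oas3, Oas2 and Ly6e, of which Irf7 and Ifit3 stayed at this level in every gene-level setting tried. Oas2 missed it without WT replicate 1 or 2, and Oas3 missed it in the values as deposited and with the replicate number as a block. Ly6e missed it without Lig4mut replicate 1, without any 1 WT array, with dim genes left out, and when probe sets were averaged. It also missed it with the replicate block and with the pattern of Xist, described below, in the model. The 5 are 13.9% of the members, against 15.5% of all genes higher at this level and 4.18% lower. In this normalization, with all genes included, the share is near the background. The Lig4mut arrays lay all above the WT arrays for 7 members, or 19.4%, against 21% of all genes, and all below them for 0 members, against 5.65% of all genes. The 7 were the same 5 with Ifitm1 and Ifitm3. In the values as deposited, without the quantile step, 4 members were higher and 0 lower at this level, the members' median was 0.18 and that of all genes 0.019. Among all genes the split of higher and lower at this level moved with the scaling. It was 2826 and 760 in the main normalization, 1221 and 990 as deposited, 3352 and 473 with arrays centred on their medians and 1578 and 798 with cyclic loess. Of the members, 10 were higher with median centring and 5 with cyclic loess, and 0 were lower in either. With dim genes left out, 4 of 32 members and 973 of 10916 genes were higher, and 0 members and 476 genes lower. There the members' median lay 0.332 above that of all genes. Whether the members exceed the background in these settings was not tested.

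**Figure D2:**
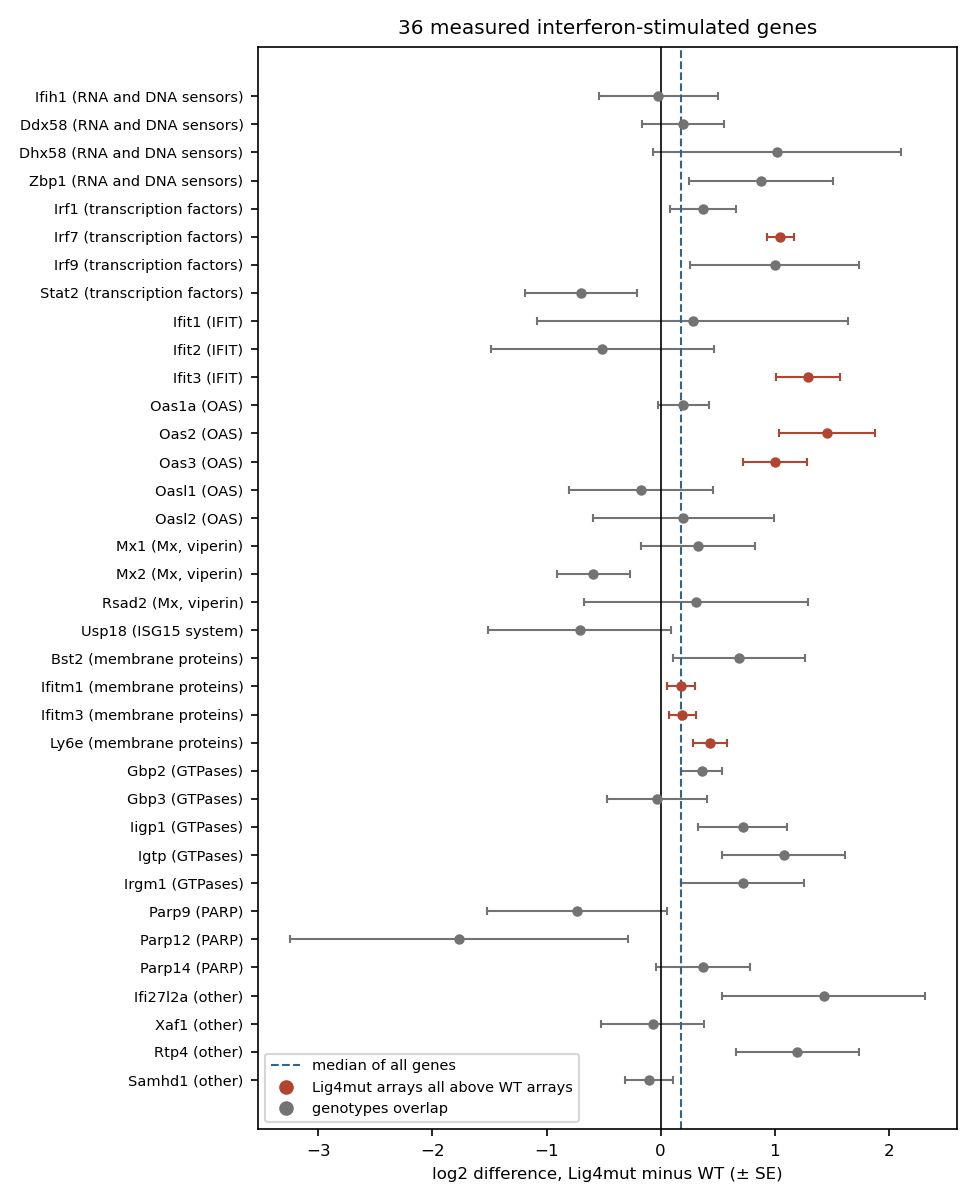
Log2 difference, Lig4mut minus WT, with its SE (3 arrays per genotype) for the 36 measured interferon-stimulated genes, ordered by role. Red points are the 7 genes whose Lig4mut arrays all lie above the WT arrays, grey points have overlapping genotypes, and the dashed line is the median of all genes, 0.177. Most of the points lie on the positive side and many within 1 SE of the dashed line.

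Of the 4 transcription factors of the response, Irf7 alone had separated genotypes. Irf7, which drives the amplifying wave of interferon alpha production, had log2 levels of 7.46, 7.43 and 7.42 in Lig4mut HSC, against 6.32, 6.46 and 6.38 in WT HSC. The genotypes did not overlap, with an SD of 0.02 in Lig4mut and 0.07 in WT. The difference was 1.05 ± 0.12 (SE, n = 3 per genotype; limma, adjusted p = 0.125), or 2.07-fold, with a 95% confidence interval of 0.76 to 1.34. It was 0.783 in the values as deposited and 1.02 to 1.09 with any 1 array left out.

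Stat2, a subunit of the activated complex, had 6.18, 6.40 and 7.76 in Lig4mut HSC, against 7.29, 7.93 and 7.22 in WT HSC. Lig4mut replicates 1 and 2 lay below all WT arrays and replicate 3 lay among them. The difference was -0.70 ± 0.49 (limma, adjusted p = 0.48), and the second probe set of the gene had 0.21 ± 0.46. Irf9, the DNA-binding subunit of that complex, had a difference of 1.00 ± 0.74, with overlapping ranges of 8.43 to 10.21 in Lig4mut and 6.89 to 8.96 in WT. Irf1, which responds chiefly to interferon gamma, had 0.37 ± 0.29. The 95% interval was -0.89 to 2.88 for Irf9 and -0.37 to 1.10 for Irf1, so both intervals include differences of either sign.

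**Figure D3:**
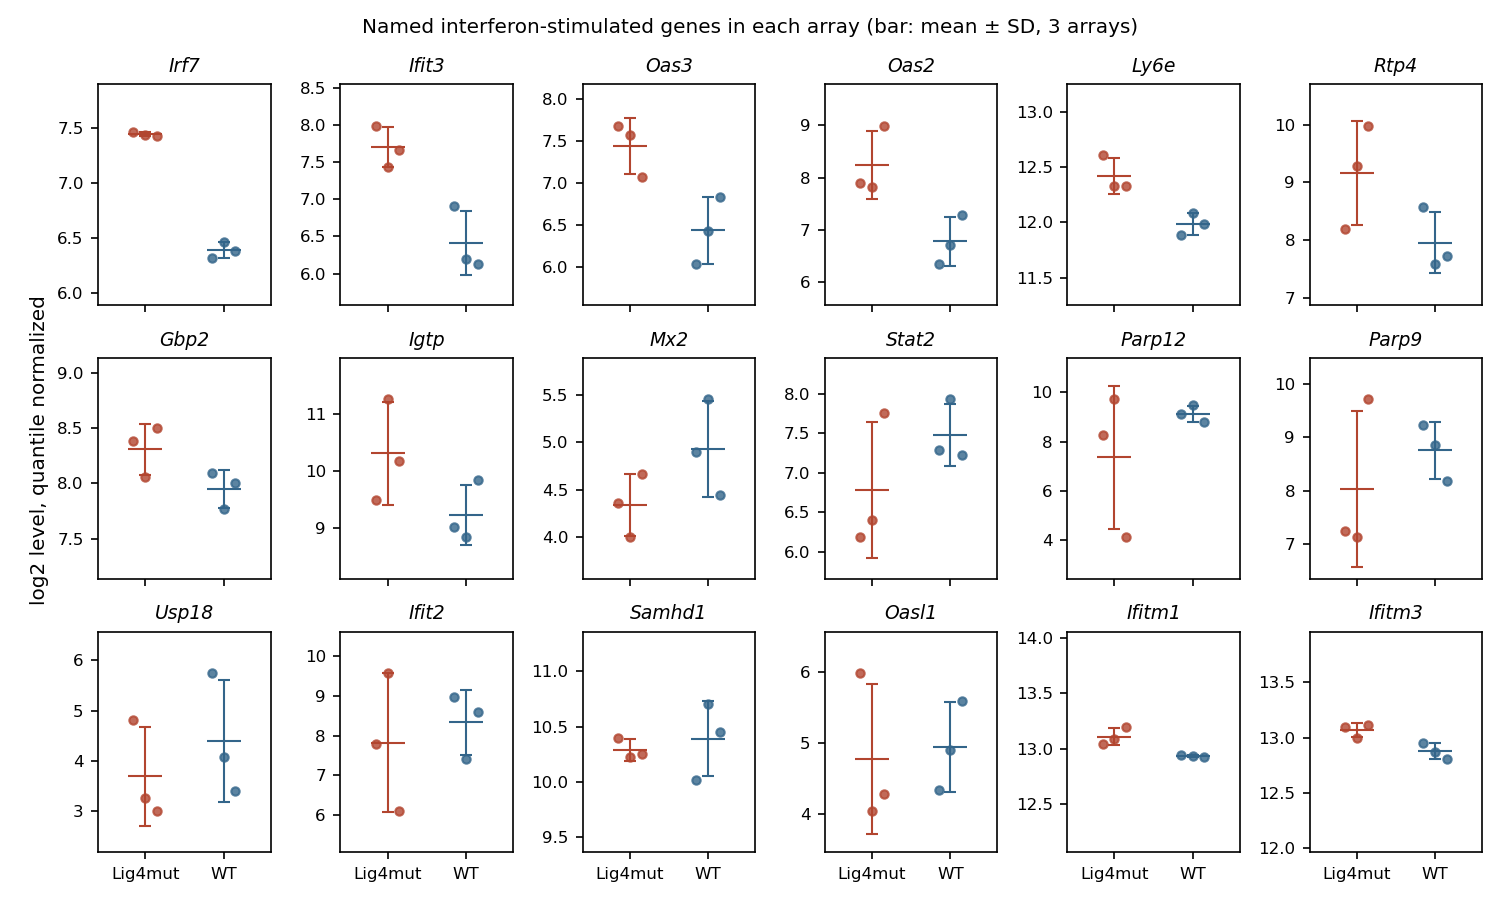
Quantile-normalized log2 level of 18 members in each array, Lig4mut (red, left) and WT (blue, right), with a bar for the mean and whiskers for the SD of 3 arrays. The scale differs between panels. The genotypes do not overlap for Irf7, Ifit3, Oas3, Oas2, Ly6e, Ifitm1 and Ifitm3, and a single Lig4mut array sets the mean of Parp12.

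The IFIT proteins bind foreign RNA that lacks the cap modifications of the host, and their genes lie side by side on chromosome 19. Ifit3 had 7.99, 7.44 and 7.67 in Lig4mut HSC, against 6.91, 6.19 and 6.13 in WT HSC. All Lig4mut arrays were above all WT arrays, with a difference of 1.29 ± 0.28 (limma, adjusted p = 0.139), or 2.45-fold. Signal from its near-identical copy Ifit3b, which the annotation names on no probe set, cannot be told apart. Ifit2 had 7.79, 9.58 and 6.09 in Lig4mut HSC, against 8.98, 7.41 and 8.60 in WT HSC. Its Lig4mut arrays lay on both sides of WT, and the difference was -0.51 ± 0.98 (adjusted p = 0.816). Ifit1, the best-known of the family, varied most within genotypes, from 4.90 to 9.07 in Lig4mut and from 4.79 to 7.77 in WT, and its difference of 0.28 ± 1.36 has a 95% interval of -3.18 to 3.75. The array with the highest value was a different one for Ifit3 than for the other two.

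Among the OAS genes, whose enzymes make the signal that switches on the RNA-degrading RNase L, 2 of 5 had Lig4mut arrays all above WT, against 21% of all genes, and the median of the 5 lay 0.023 above that of all genes. Oas2 had 7.90, 7.83 and 8.99 in Lig4mut HSC, against 6.35, 6.72 and 7.28 in WT HSC. The lowest Lig4mut array was above the highest WT array, with a difference of 1.46 ± 0.42 (limma, adjusted p = 0.175), or 2.75-fold. Oas3 had 7.68, 7.57 and 7.07 in Lig4mut HSC, against 6.04, 6.43 and 6.84 in WT HSC. These also did not overlap, with a difference of 1.00 ± 0.28 (adjusted p = 0.17). Oas1a, which has near-identical copies that its probe set may also read, had 0.20 ± 0.22, and Oasl2, which like Oasl1 encodes a protein related to OAS, had 0.20 ± 0.79. Oasl1 had 5.98, 4.04 and 4.28 in Lig4mut HSC, against 4.33, 4.90 and 5.58 in WT HSC, with overlapping genotypes and a difference of -0.17 ± 0.63.

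The genes of membrane proteins had positive differences for 4 of 4 members, and for 3 of them the Lig4mut arrays all lay above WT, as they did for 21% of all genes. Ifitm1 and Ifitm3 encode small proteins that hinder the entry of viruses through endosomes, and Ifitm genes are known to be high in stem cells without interferon. Ifitm1 had 13.04, 13.09 and 13.20 in Lig4mut HSC, against 12.94, 12.93 and 12.92 in WT HSC. Ifitm3 had 13.10, 13.00 and 13.11 in Lig4mut HSC, against 12.95, 12.87 and 12.81 in WT HSC. Neither overlapped between genotypes, but the differences of 0.18 ± 0.12 and 0.19 ± 0.12 lie 0.00 and 0.01 from the median of all genes. They were 0.487 and 0.497 with arrays centred on their medians, where the median of all genes was 0.332.

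Ly6e, which encodes a surface protein of the Ly6 family that restricts some coronaviruses, had 12.61, 12.33 and 12.33 in Lig4mut HSC, against 11.89, 12.09 and 11.99 in WT HSC. The genotypes did not overlap, with a difference of 0.43 ± 0.15 (limma, adjusted p = 0.209), or 1.35-fold, and it was 0.731 with arrays centred on their medians. The second, dimmer probe set of Ly6e had 0.24 ± 0.65. Bst2 encodes tetherin, which holds budding virus at the cell surface. It had 8.20, 10.15 and 8.66 in Lig4mut HSC, against 7.80, 8.41 and 8.71 in WT HSC, so that Lig4mut replicate 2 alone stood above WT. Its difference of 0.69 ± 0.58 was 0.121 without that replicate.

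The GTPases that attack the vacuoles of intracellular parasites and bacteria respond most to interferon gamma in mice. Of the 5, 4 had positive differences and none passed at an unadjusted p under 0.05. Igtp had 9.49, 11.26 and 10.17 in Lig4mut HSC, against 9.01, 8.83 and 9.84 in WT HSC. Only the WT replicate 3 reached into the Lig4mut range, and the difference was 1.08 ± 0.54 (limma, adjusted p = 0.343). Gbp2 had 8.38, 8.06 and 8.5 in Lig4mut HSC, against 8.09, 7.77 and 8.00 in WT HSC. Its lowest Lig4mut array lay just below the highest WT array, and the difference was 0.36 ± 0.18. Irgm1 had 0.72 ± 0.54 and Gbp3 -0.03 ± 0.44. Gbp3 was at 0.0852 with arrays centred on their medians.

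Iigp1 gave very different answers through its pair of probe sets. The brighter one, which represents the gene, had 9.76, 9.44 and 8.62 in Lig4mut HSC, against 8.14, 8.51 and 9.01 in WT HSC, with a difference of 0.72 ± 0.39 (limma, adjusted p = 0.37). The other had 9.92, 9.61 and 9.53 in Lig4mut HSC, against 7.27, 6.22 and 6.93 in WT HSC. These arrays were far apart, with a difference of 2.88 ± 0.31, yet it did not pass when every probe set was tested on its own (limma, adjusted p = 0.118 over 34945 probe sets). As the mean of both probe sets the gene had 1.80.

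The antiviral effectors Mx1, Mx2 and Rsad2 showed no separation. Mx2, a GTPase related to the influenza restriction factor Mx1, had 4.36, 4 and 4.67 in Lig4mut HSC, against 4.90, 5.45 and 4.45 in WT HSC. Lig4mut replicate 3 lay above WT replicate 3, and the difference was -0.59 ± 0.32 (limma, adjusted p = 0.383). Mx1 had 0.33 ± 0.50. Rsad2 encodes viperin, which makes a chain-terminating nucleotide against viral polymerases, and its difference was 0.31 ± 0.98, with Lig4mut replicate 1 at 10.53 beside 7.16 and 7.22. Without that replicate it was -0.802. The dimmer probe sets had -0.40 ± 0.63 and -1.50 ± 0.56, and the gene had -0.528 when its probe sets were averaged.

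The genotypes overlapped for all 4 genes of nucleic acid sensors. Ifih1 and Ddx58, which encode the RNA sensors MDA5 and RIG-I, had -0.02 ± 0.52 and 0.20 ± 0.36. For Ifih1 the 95% interval was -1.35 to 1.31, and its value was 0.292 with arrays centred on their medians and 0.0801 with cyclic loess. Zbp1, a sensor of Z-form nucleic acid, had 0.88 ± 0.63. Dhx58, which encodes the regulatory relative LGP2, had 1.02 ± 1.09 through its brightest probe set, with 9.63 in Lig4mut replicate 3 beside 7.26 and 5.97. Another of its 3 probe sets had 4.22, 3.93 and 3.89 in Lig4mut HSC, against 6.07, 5.62 and 6.83 in WT HSC. The Lig4mut arrays all lay below the WT arrays on that probe set, with a difference of -2.16 ± 0.34 (limma, adjusted p = 0.124 over all probe sets), and the mean of the 3 was -0.395.

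**Figure D4:**
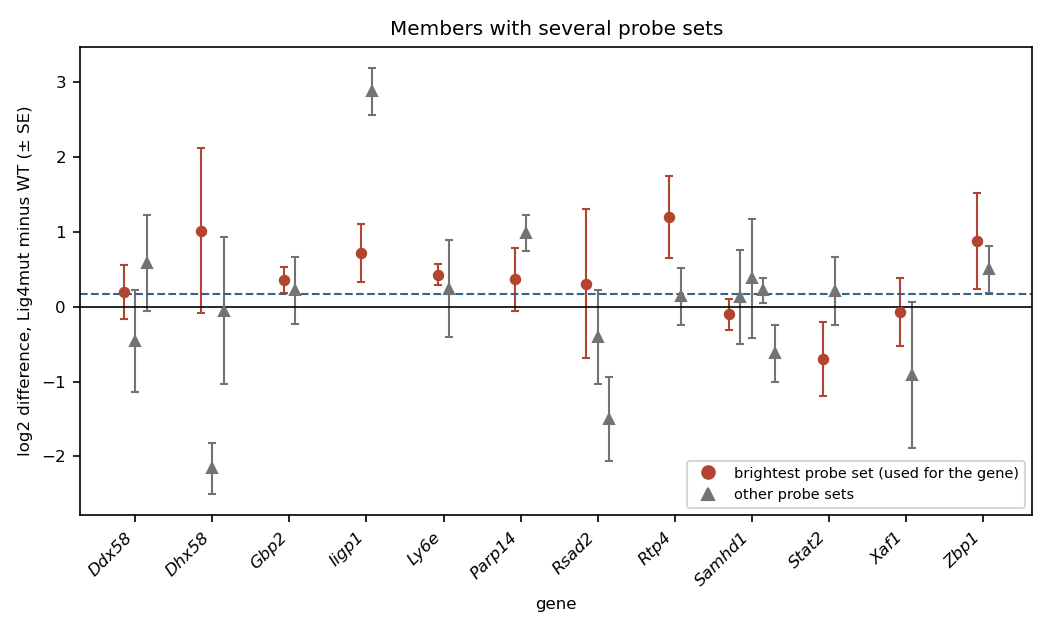
Log2 difference, Lig4mut minus WT, with its SE for every probe set of the 12 members that have more than 1. Red circles are the brightest probe set, which stands for the gene, grey triangles are the others, and the dashed line is the median of all genes, 0.177. Iigp1 has a second probe set at 2.88, and Dhx58 and Rsad2 have others at -2.16 and -1.50.

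The disagreement between probe sets was not limited to these genes. Of the 12 members with several probe sets, 7 had all of them on 1 side of 0 and 5 had them on both sides. Over the 54 probe sets, 36 had positive and 18 negative differences. At an unadjusted p under 0.05, 7 were higher and 2 lower, against 12.2% higher and 5.3% lower of all 34945 probe sets, and 0 passed after adjustment, against 0.00286% of all. Besides those of the 5 genes named at this level, the higher ones were the dimmer probe sets of Iigp1 and of Parp14, which for Parp14 had 0.99 ± 0.24. The lower ones were those of Dhx58 and Rsad2 just described.

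The ADP-ribosyltransferase genes were negative for 2 of 3. Parp12, whose product marks viral and host proteins with ADP-ribose, had 8.25, 9.70 and 4.12 in Lig4mut HSC, against 9.11, 9.46 and 8.80 in WT HSC. Lig4mut replicate 3 stood far below all the others, the difference was -1.77 ± 1.48 (limma, adjusted p = 0.558), and it was -0.15 without that replicate. Parp9 had 7.25, 7.13 and 9.71 in Lig4mut HSC, against 9.23, 8.86 and 8.19 in WT HSC. Here replicate 3 stood above WT and the other two below it, with a difference of -0.73 ± 0.79. Parp14 had 0.37 ± 0.41 through its brightest probe set.

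Usp18, the protease that removes ISG15 from proteins and shuts off the type I receptor, had 4.81, 3.25 and 3.00 in Lig4mut HSC, against 5.75, 4.07 and 3.39 in WT HSC. The genotypes overlapped, the lowest value lies at the floor of 3 that the deposited table carries, and the difference of -0.71 ± 0.80 may be understated in size for that reason. Samhd1, which lowers the nucleotide pool that viruses copy from, had 10.40, 10.22 and 10.25 in Lig4mut HSC, against 10.02, 10.70 and 10.45 in WT HSC. All Lig4mut arrays lay within the WT range, and the difference was -0.10 ± 0.21, with a 95% interval of -0.64 to 0.43. It was 0.234 with arrays centred on their medians, 0.0117 with cyclic loess and 0.00156 when its 5 probe sets were averaged.

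Rtp4, an interferon-induced chaperone of receptor transport, had 8.20, 9.29 and 9.98 in Lig4mut HSC, against 8.57, 7.59 and 7.72 in WT HSC. Lig4mut replicate 1 lay below WT replicate 1, and the difference was 1.20 ± 0.54 (limma, adjusted p = 0.304), with 0.14 ± 0.38 in the other probe set. Ifi27l2a had 1.43 ± 0.89, with 9.44 in Lig4mut replicate 2 beside 6.84 and 6.22 in the other two and 5.71 to 6.37 in WT. Without that replicate it was 0.463. Xaf1, which counteracts an inhibitor of apoptosis, had -0.07 ± 0.45, and 0.201 with arrays centred on their medians.

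Members varied more between Lig4mut arrays than between WT arrays, and so did genes in general. The median SD of a member was 0.749 in Lig4mut and 0.45 in WT, and 26 of 36 had the larger SD in Lig4mut. Over all genes the median SD was 0.452 in Lig4mut and 0.283 in WT, with the larger SD in Lig4mut for 69.9%. The high values lay in different arrays for different members. Of the 36, 9 were highest in Lig4mut replicate 1, 8 in replicate 2 and 14 in replicate 3, against 2, 3 and 0 in WT replicates 1, 2 and 3. Of all genes, 21.5%, 25.9% and 23.8% were highest in Lig4mut replicates 1, 2 and 3, against 10.1%, 9.0% and 9.7% in WT replicates 1, 2 and 3. Rsad2 peaked in Lig4mut replicate 1. Ifit1, Ifit2, Ifi27l2a, Bst2 and Igtp peaked in replicate 2, and Dhx58, Irf9, Zbp1, Rtp4 and Oas2 in replicate 3. The mean level of the 36 was nonetheless close, at 8.31, 8.40 and 8.37 in Lig4mut and 8.17, 7.86 and 8.08 in WT, while that of all genes was 7.11 to 7.13 in Lig4mut and 6.99 to 7.01 in WT.

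**Figure D5:**
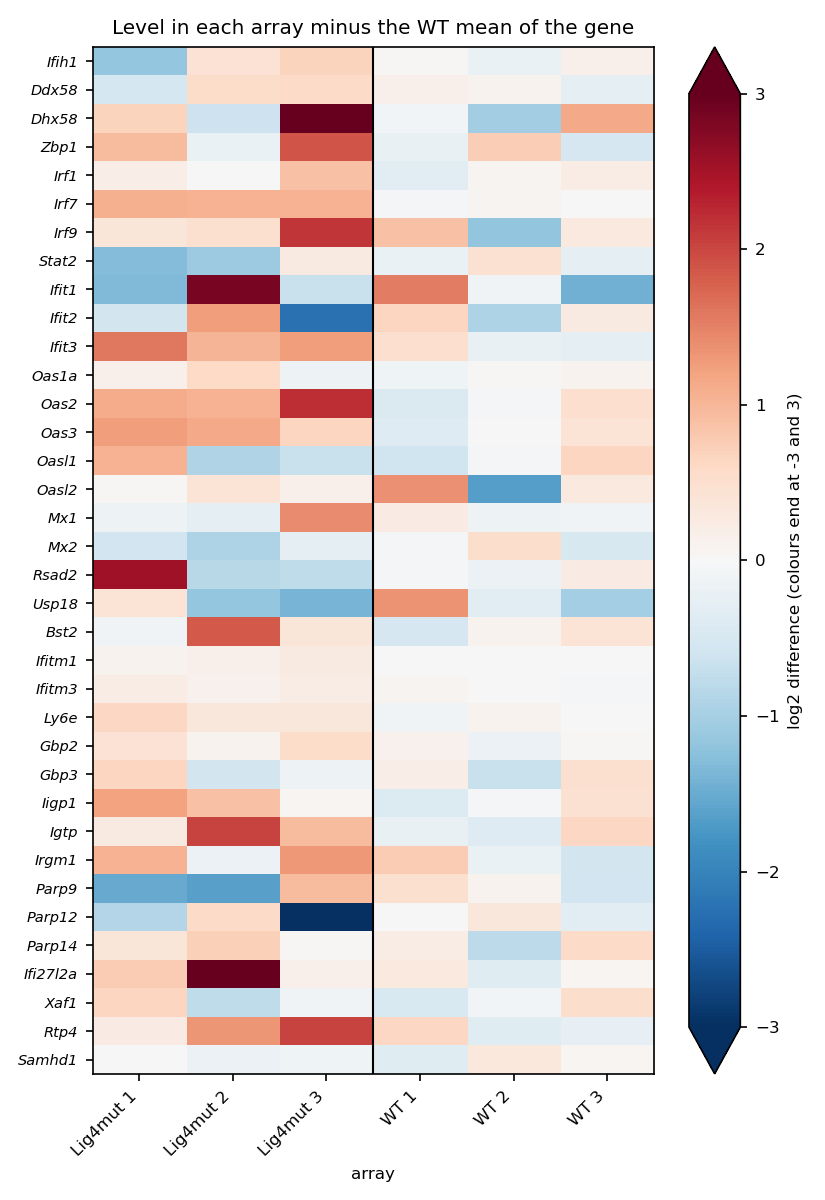
Quantile-normalized log2 level of 36 members in each array minus the gene's mean over the WT arrays (colours end at -3 and 3), with Lig4mut arrays left of the line and WT arrays right of it. Irf7, Ifit3, Oas2 and Oas3 are above the WT mean in all Lig4mut arrays, whereas Ifit1, Ifi27l2a, Rsad2 and Dhx58 are far above the WT mean in a single Lig4mut array each.

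Genes upstream of the members were described from lists of the pathway. Among interferon genes, 9 of 14 were measured, 8 had positive differences and 3 were higher at an unadjusted p under 0.05, namely Ifnab (0.66 ± 0.12), Ifna5 (1.19 ± 0.36) and Ifna1 (1.01 ± 0.31). Of all genes, 62.9% were positive and 15.5% higher at this level, and the median of the 9 lay 0.087 above that of all genes. The mean level of the 9 was low, at 4.96 to 5.20 in Lig4mut arrays and 4.56 to 4.69 in WT arrays. That of all genes was 7.11 to 7.13 and 6.99 to 7.01, and 2 of the 9 were at the floor of 3 on at least 1 array. In Lig4mut and WT HSC, Ifnab averaged 5.20 and 4.54, Ifna5 7.54 and 6.34, and Ifna1 8.56 and 7.55. None passed over all genes (limma, adjusted p = 0.132, 0.18 and 0.185), and probe sets of the alpha interferons can share signal, since these genes are near-identical. Ifnb1, the interferon made first on infection, had 5.05 in Lig4mut HSC and 4.68 in WT HSC on average, with overlapping arrays. Of 10 measured receptor and kinase genes, 6 were positive, and Il10rb, a subunit shared by the interleukin-10 and lambda interferon receptors, was the single one at this level (1.30 ± 0.31, adjusted p = 0.149), with its other probe set in the opposite direction. Ifnlr1, the chain specific to the lambda interferon receptor, had 4.62, 4.55 and 5.05 in Lig4mut HSC, against 4.18, 4.2 and 4.46 in WT HSC, without overlap and with a difference of 0.46 ± 0.19 (adjusted p = 0.277). Ifnar1, a chain of the type I receptor, had -0.68 ± 0.41.

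The sensing adaptors had 7 positive and 12 negative values among 19 measured genes. Of all genes, 62.9% were positive, 15.5% were higher at an unadjusted p under 0.05 and 4.18% were lower. At an unadjusted p under 0.05, Tlr9, the endosomal receptor for bacterial and viral DNA, was higher (0.76 ± 0.23), while Irf5 (-0.71 ± 0.20, although its dimmer probe set was positive) and Trim25, the ubiquitin ligase that helps activate RIG-I (-1.03 ± 0.34), were lower. Negative regulators had 5 positive and 9 negative values among 14, with Ptpn2, a phosphatase that acts on JAK and STAT proteins, lower at this level (-0.90 ± 0.26) through all 4 of its probe sets. Its Lig4mut arrays lay all below WT, and those of 1 other regulator, Socs1, lay all above WT (0.57 ± 0.25). Of 38 measured genes on a further list of induced genes, 25 were positive. There Mov10 (1.59 ± 0.56), Ifi35 (0.97 ± 0.34) and Tap1 (0.68 ± 0.26) were higher and Ube2l6, the conjugating enzyme for ISG15, lower (-2.83 ± 0.65). The higher ones are 7.89% of the 38, below the share of all genes. No gene of the adaptor, regulator and further induced lists passed over all genes (limma, smallest adjusted p = 0.147).

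Markers of several other cell types had higher mean levels in Lig4mut arrays, and granulocyte markers in 1 of them. Of 9 measured plasmacytoid dendritic cell genes, the cells that make most interferon alpha in blood, 9 had positive differences, with a mean level of 7.47 to 7.67 in Lig4mut arrays and 6.78 to 7.10 in WT arrays. One of them, Bst2, is also a member. The counts of this and the following lists stand beside 62.9% of all genes with a positive difference, and the median of all genes was 0.177 here, 0.031 with dim genes left out and 0.019 as deposited. B cell genes were positive for 11 of 11, with a mean level of 6.05 to 6.71 in Lig4mut and 5.75 to 5.82 in WT, T and natural killer cell genes for 10 of 10 (5.27 to 6.01 in Lig4mut and 4.85 to 5.35 in WT), and macrophage, monocyte and dendritic cell genes for 11 of 14 (6.34 to 6.63 in Lig4mut and 5.63 to 6.35 in WT). Endothelial and stromal genes were positive for 9 of 10 (7.85 to 9.17 in Lig4mut and 6.86 to 8.63 in WT), megakaryocyte genes for 7 of 9 and erythroid genes for 4 of 8, while stem cell genes were positive for 3 of 11. At an unadjusted p under 0.05, 3 of these 11 were lower and 0 higher, against 4.18% and 15.5% of all genes. The 3 were Tal1 (-1.73 ± 0.35), Meis1 (-1.65 ± 0.42) and Kit (-0.95 ± 0.26). No marker of these lists was at the floor on every array, but of all 18193 genes only 261 were, so this does not show that the markers were expressed. The mean level of all genes was 7.11 to 7.13 in Lig4mut and 6.99 to 7.01 in WT. Those of the B cell, T and natural killer cell, and macrophage, monocyte and dendritic cell lists lay below it in every array. In bulk RNA, fewer cells of a type and less RNA per cell cannot be told apart, and the part of such cells in the members' values was not tested.

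Lig4mut replicate 2 stood apart in granulocyte genes, with a mean level of 10.77 over 13 of them, beside 6.17 and 6.74 in the other Lig4mut arrays and 7.17 to 8.04 in WT. Without it the members' median was 0.255, and 7 were higher at an unadjusted p under 0.05 and 0 lower. Over all 18193 genes, 2609 were higher and 899 lower in that fit. The median of all genes was 0.174 there, so the members' median lay 0.081 above it. Irf7, Ifit3, Oas2, Oas3 and Ly6e then had differences of 1.05, 1.42, 1.67, 0.936 and 0.479. Xist was high in that array and in WT replicate 3 and low in the other 4, so that each genotype held 1 array of this pattern. With the pattern in the model, an alternative chosen after seeing the data, 5 members were higher at an unadjusted p under 0.05 and 0 lower. Igtp was among them and Ly6e was not, and none passed the adjusted threshold (limma, smallest adjusted p = 0.183). Over all genes 2670 were higher and 765 lower with the pattern in the model.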

How the data were processed

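Gene expression was measured on 6 one-colour Affymetrix mouse arrays. The log2 values per probe set were deposited by the authors, who made them with RMA per the submitters' processing notes. The lowest value is 3 on every array. Deposited array medians were 5.97 to 6.05 in Lig4mut and 6.29 to 6.34 in WT, so the values were quantile normalized. An array has no read depth: precision is limited by there being 3 arrays per genotype. The labels describe standard Affymetrix labelling and the design text an Ovation Pico amplification.

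Gene names came from the platform annotation held by GEO, with symbols updated by gene identifier (RefSeq, GRCm38.p6). Of 45101 probe sets, 34945 name 1 gene, 932 several and 9160 none, and 64 are controls. The brightest probe set represents a gene. limma 3.58.1 in R 4.3.3 (lmFit, eBayes, two-sided, no filter) was fitted over all 18193 genes with Benjamini-Hochberg adjustment. The smallest p of an exact permutation test at this size is 0.1, and none was run.

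The members, lists and alternatives were chosen with earlier results of these data known. Array values are printed for the 8 members with the smallest p in each direction and the 4 of highest level. Of each pathway list up to 4 genes with the smallest p are named. Further members and probe sets given by array were picked after their values were seen. Alternatives were the replicate block, each array left out, values as deposited, median centring, cyclic loess, dim genes (under the 40th percentile) left out, mean of probe sets, trend with robust moderation, array weights, every probe set and other motif settings, and, chosen after seeing the data, the Xist pattern in the model.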

Additional observations from a re-analysis of the deposited data

How the results depend on the processing

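No member passed the adjusted threshold under any of the 15 other settings or with every probe set tested (limma, 0 of 36 genes, of which 32 were tested when dim genes were left out, and 0 of 54 probe sets, with smallest member adjusted p between 0.11 and 0.362 over the gene-level settings). Of the 36 members, 24 kept the sign of their difference in every setting that included them. The counts of members at an unadjusted p under 0.05 were 3 higher and 1 lower with the replicate block (Oas3 and Ly6e missed it, and Usp18 was the lower one), 10 higher with arrays centred on their medians, and 3 to 8 higher and 0 to 2 lower with 1 array left out. The labels do not say whether same-numbered arrays belong together. Their deviations correlated at 0.036, 0.01 and -0.032 over all genes, which cannot settle it, since a pairing may act on some genes only. Over all genes 2 passed in the main fit, 0 with the replicate block, with any 1 array left out, with dim genes left out, when probe sets were averaged and, in an alternative chosen after seeing the data, with the Xist pattern in the model, and 4 with a variance trend. At an unadjusted p under 0.05 these fits held between 1449 and 4096 genes. Of all 18193 genes, 2132 were higher and 736 lower at this level with the replicate block, and 3352 and 473 with median centring. With 1 array left out, 1759 to 2991 were higher and 542 to 1105 lower. The members' median difference was 0.319 in the main fit, 0.18 as deposited, 0.493 with median centring, 0.275 with cyclic loess, 0.363 with dim genes left out, 0.241 with the mean of probe sets, 0.382 with array weights and 0.24 to 0.409 with 1 array left out. Members whose genotypes did not overlap numbered 8 to 14 with 1 array left out, where fewer arrays separate more easily. No share over all genes is given for those fits, so these numbers cannot be set against a background.

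Signs turned with median centring for Ifih1 (0.292), Gbp3 (0.0852), Xaf1 (0.201) and Samhd1 (0.234), with cyclic loess for Ifih1 (0.0801) and Samhd1 (0.0117), with the mean of probe sets for Dhx58 (-0.395), Rsad2 (-0.528) and Samhd1 (0.00156), and with array weights for Gbp3 (0.0552). The cause was not tested. With 1 array left out the differences spanned both signs for Ifih1 (-0.368 to 0.551), Ifit1 (-0.997 to 1.09), Ifit2 (-1.39 to 0.355), Oasl1 (-0.776 to 0.195), Oasl2 (-0.63 to 0.888), Mx1 (-0.217 to 0.633), Rsad2 (-0.802 to 0.881), Gbp3 (-0.366 to 0.237), Parp14 (-0.0291 to 0.653), Xaf1 (-0.429 to 0.273) and Samhd1 (-0.287 to 0.0526). The response element core was found in 15 windows on both strands, 8 on the gene's strand alone and 12 with a C after it.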

Other observations

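The probe set that names Isg15 together with Gm9706 was left out of the comparison. It had log2 levels of 7.64, 8.83 and 6.90 in Lig4mut HSC, against 8.15, 6.98 and 7.32 in WT HSC. The genotypes overlapped, with means of 7.79 and 7.48.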
